A study of Mus musculus with 24 samples.

Results

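The ventral prostate of SWR, 129X1 and FVB mice was compared with that of AKR, BALB/c and C57BL/6 mice, the grouping of 6 inbred strains in which Mgst1 and Psca were high in the first 3 strains and low in the other 3. The grouping came from these measured values, so the separation of Mgst1 and Psca, and every other difference between the sides, is a description and carries no test. A probe set was counted as separated when all 3 strain means of one side lay beyond all 3 of the other. This held for 2417 of 22626 probe sets (10.7%), 1222 of them higher (5.4%) and 1195 lower (5.28%) in SWR, 129X1 and FVB, and all 24 arrays of the series entered the comparison, 12 on each side. Each strain gave 4 arrays, which the labels call biological replicates. They do not say whether an array held the RNA of 1 animal or of several, so p-values measure the spread between these samples. Every mouse was wild type, untreated, on a standard diet and 8 weeks old, and total RNA was hybridised to the Affymetrix MOE430A array, on which a probe set is a group of short probes for one transcript. Strain is the only difference between the groups that the labels give.

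Probe sequences were not compared with the genomes of the strains, so a difference in signal between strains can reflect the amount of transcript or how well the probes match each strain's allele, and these cannot be told apart here. Levels are log2(intensity + 16), and fold values are on the same scale, which understates the change of dim probe sets. The gap is the distance between the nearest strain means of the sides, and the difference is the mean of the 3 strain means of SWR, 129X1 and FVB minus that of the other 3. "Higher" and "lower" below refer to SWR, 129X1 and FVB. Of the 22626 probe sets, 15775 exceeded the filter on dim values and are called tested. A probe set that passed only through the side on which it was bright had to differ, so counts over tested members describe only those members. Each of the 24 arrays had its highest correlation with another array of its own strain. Between strains, the mean correlation was 0.927 for arrays of the same side and 0.924 for arrays of opposite sides. Spink1, a protease inhibitor that the ventral lobe secretes, lay between 12.33 and 13.45 on the 24 arrays. Krt18, a keratin of luminal cells, had strain means of 10.62 to 11.40. The summed intensity was 15553 to 37140 over 8 ventral prostate secretory genes and 8705 to 21827 over 5 genes for secretions of other lobes and the seminal vesicle. Both lists hold Pbsn, and whether other lobes contributed RNA was not tested. In whole tissue, fewer cells of a type and less RNA per cell cannot be told apart.

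The prostate gland is lined by secretory luminal cells that rest on basal cells, and each gland is wrapped in smooth muscle and fibroblasts. Mgst1 encodes a membrane-bound glutathione transferase of the endoplasmic reticulum and outer mitochondrial membrane, which couples glutathione to reactive compounds and reduces lipid peroxides. Psca, prostate stem cell antigen, encodes a small surface protein of the Ly6 family held by a lipid anchor, and in the mouse prostate it marks luminal cells near the urethra and is shared with the bladder lining.

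The reference promoters of 4 genes are shown: Mgst1 as a marker of the split, Pik3c2g as its neighbour on the chromosome, and Slc25a30 and Mme as genes of either direction for which several probe sets were separated. Slc25a30 and Mme were chosen after their values were seen. The sequences are the 250 bases before the annotated start, 5′ to 3′ on the gene's strand, from RefSeq's annotation of GRCm38.p6, the C57BL/6J reference. They are the reference letters and were not read in the strains studied. Capitals mark matches to the motifs searched. Mgst1 lies at chr6:138140277-138140526 (plus strand), Pik3c2g at chr6:139613822-139614071 (plus strand), Slc25a30 at chr14:75787038-75787287 (minus strand) and Mme at chr3:63294961-63295210 (plus strand).
Mgst1: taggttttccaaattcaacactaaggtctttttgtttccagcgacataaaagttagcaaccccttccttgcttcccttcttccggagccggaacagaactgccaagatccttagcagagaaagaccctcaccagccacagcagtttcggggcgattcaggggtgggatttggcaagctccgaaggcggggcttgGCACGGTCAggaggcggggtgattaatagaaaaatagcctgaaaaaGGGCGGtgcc
Pik3c2g: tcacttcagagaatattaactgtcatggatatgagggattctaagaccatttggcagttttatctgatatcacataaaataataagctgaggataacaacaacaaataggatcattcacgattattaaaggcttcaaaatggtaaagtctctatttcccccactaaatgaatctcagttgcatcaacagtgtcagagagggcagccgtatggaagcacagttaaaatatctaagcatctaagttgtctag
Slc25a30: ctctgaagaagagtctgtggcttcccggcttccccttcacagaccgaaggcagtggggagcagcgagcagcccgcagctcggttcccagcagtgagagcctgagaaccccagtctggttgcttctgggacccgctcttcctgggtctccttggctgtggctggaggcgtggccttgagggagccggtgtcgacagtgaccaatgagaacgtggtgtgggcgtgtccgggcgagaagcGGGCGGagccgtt
Mme: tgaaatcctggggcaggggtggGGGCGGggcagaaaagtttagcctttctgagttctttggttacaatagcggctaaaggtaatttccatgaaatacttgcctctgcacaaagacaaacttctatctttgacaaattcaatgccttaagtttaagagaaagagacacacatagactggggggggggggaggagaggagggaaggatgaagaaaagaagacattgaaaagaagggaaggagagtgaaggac

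Motifs were searched on both strands. TGACNNNGC is the core of the antioxidant response element, and AGAACA is a half-site of the androgen receptor. GGGCGG is known as a GC box. TATAAA is known as a TATA box. None of the marked matches overlapped another. The Mgst1 window held 1 TGACNNNGC, on the minus strand, and 1 GGGCGG. Slc25a30 and Mme each held 1 GGGCGG, and none of the 4 motifs was found in the Pik3c2g window. Among 27025 promoter windows of this length, 10.1% held TGACNNNGC, 16.1% AGAACA, 32.96% GGGCGG and 12.98% TATAAA. Of the 26 genes described by name for the split, 20 had a promoter entry: 11 of them held GGGCGG, 3 TGACNNNGC, 1 AGAACA and 1 TATAAA. A match is a description of letters and not a binding site.

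Mgst1 was read by the probe set 1415897_a_at. On the log2 scale SWR gave 10.51, 10.39, 10.66 and 10.44, 129X1 gave 10.45, 10.99, 10.83 and 10.60, and FVB gave 10.64, 11.02, 10.87 and 10.74. AKR gave 8.21, 8.26, 7.82 and 7.56, BALB/c gave 8.37, 7.44, 7.95 and 8.21, and C57BL/6 gave 7.46, 7.12, 6.94 and 7.37. The 12 arrays of the high side all lay above the 12 of the low side, and C57BL/6 was lowest. The strain means were 10.50 ± 0.12 in SWR, 10.72 ± 0.24 in 129X1 and 10.82 ± 0.16 in FVB, against 7.96 ± 0.33 in AKR, 7.99 ± 0.41 in BALB/c and 7.22 ± 0.24 in C57BL/6 (SD, n = 4 each). The gap was 2.51 and the difference 2.95 with a standard error of 0.11, a 7.75-fold difference. Within the high side, Mgst1 did not pass limma's moderated F test (adjusted p = 0.43), and within the low side it did (adjusted p = 0.0044). A second Mgst1 probe set, 1415898_at, was dim on every array, with strain means of 4.54 to 4.99, did not pass the filter and was not separated.

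Psca was read by 1451258_at. SWR gave 7.65, 7.30, 6.81 and 8.33, 129X1 gave 8.48, 8.41, 8.66 and 9.33, and FVB gave 7.44, 7.77, 7.61 and 7.04. AKR gave 6.45, 4.96, 5.18 and 5.46, BALB/c gave 4.51, 5.02, 4.54 and 4.99, and C57BL/6 gave 4.60, 4.68, 4.62 and 4.68. The sides again did not overlap, but the order within them differed from that of Mgst1, with 129X1 at the top and one AKR array, at 6.45, near the lowest SWR array, at 6.81. Strain means were 7.52 ± 0.64, 8.72 ± 0.42 and 7.46 ± 0.32 in SWR, 129X1 and FVB, and 5.51 ± 0.66, 4.76 ± 0.28 and 4.64 ± 0.04 in AKR, BALB/c and C57BL/6 (SD, n = 4 each). The gap was 1.95 and the difference 2.93 with a standard error of 0.17, a 7.62-fold difference. On 11 of the 12 low-side arrays Psca was dim, at or below the array's own 40th percentile, so the size of the difference depends on the pseudocount: it was 1.86 with a pseudocount of 64 and 3.89 with 1. Psca differed among the 3 strains of the high side (limma's moderated F test, adjusted p = 0.0048) and missed the threshold among those of the low side (adjusted p = 0.056), where the test rests on dim signals. Dim signals also made up most arrays of one side for Itga8, Lmod1, Itga5, Snorc and Srrm4, and most arrays of both sides for Asb6.

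**Figure D1:**
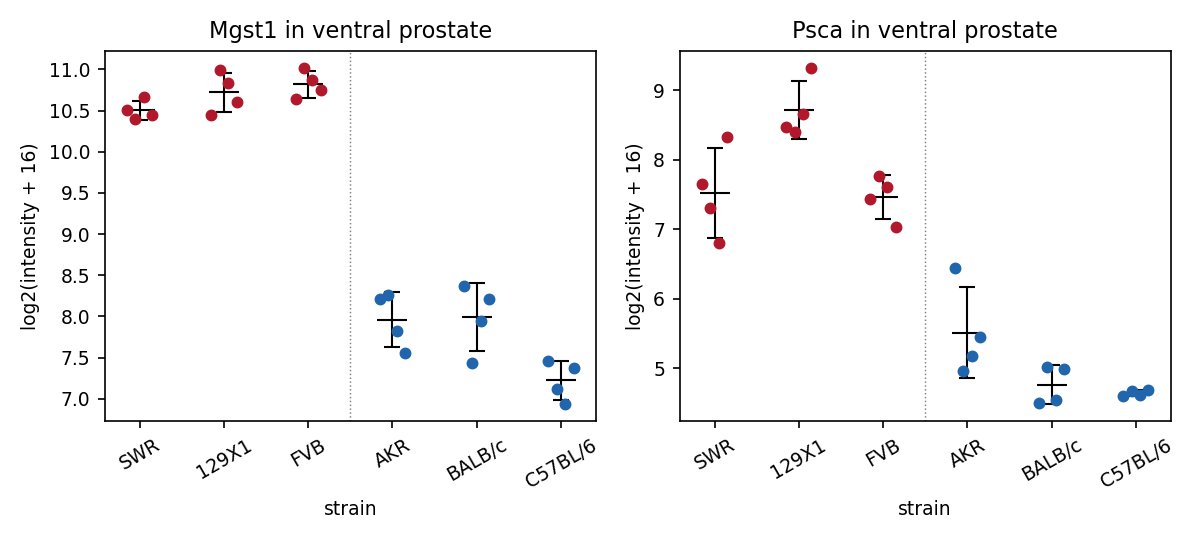
Log2(intensity + 16) of Mgst1 and Psca on each of the 24 arrays by strain, with the strain mean and SD (n = 4 arrays each). The arrays of SWR, 129X1 and FVB span 10.39 to 11.02 for Mgst1 and 6.81 to 9.33 for Psca, above 6.94 to 8.37 and 4.51 to 6.45 in AKR, BALB/c and C57BL/6.

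Whether the pair also moved together among arrays of 1 strain was tested on deviations from the strain mean. The choice of the grouping did not use these deviations. Across the 24 arrays Pearson's r was -0.08 (permutation p = 0.75) and Spearman's rho -0.11 (permutation p = 0.65), two-sided, with 100000 permutations within strains. These were 2 measures of a single relation. Without the 2 arrays farthest from the median for Mgst1 r was 0.04, so no relation within strains was detectable with 4 arrays per strain. Psca was dim on 11 of the 12 low-side arrays, so on that side the test could show little.

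Among the 15775 tested probe sets, 941 (5.97%) were separated with SWR, 129X1 and FVB higher and 786 (4.98%) with these strains lower, together 1727 (10.9%). Nothing is read from these shares, since the rule set them. Higher probe sets made up 54.5% of the separated ones after each array was rescaled, and 67.3% on the deposited scale. Most separations were narrow: the median gap was 0.08 for the higher and 0.05 for the lower probe sets, and the median size of the difference was 0.29. Just inside the rule were Hspa4 with a gap of 6.73e-05 and Acbd6 with 0.000126, and just outside were Mrpl43 with -1.69e-05 and Numa1 with -2.72e-05. The arrays of the sides did not overlap for 29 probe sets (0.184%), 15 of them higher (0.0951%) and 14 lower (0.0887%). A gap of at least 1 was found for 4 (0.0254%), which were those of Mgst1, Psca and Pik3c2g and one of Adi1. The limma contrast between the sides, which shares its measurements with the rule and supports nothing here, called 2229 (14.1%), of which 1249 (7.92%) were higher and 980 (6.21%) lower.

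Differences among the strains of 1 side were independent of the rule's direction, although the rule leaves out probe sets whose spread within a side is wide against the gap. Over all tested probe sets, limma's moderated F test called 2315 (14.7%) among SWR, 129X1 and FVB and 3530 (22.4%) among AKR, BALB/c and C57BL/6. Of the 1727 separated probe sets, 98 (5.67%) were called in the first test and 207 (11.99%) in the second. Of the 26 genes named for the split, which are Mgst1, Psca and the 12 genes with the widest gap in each direction, 7 were called within the high side, 8 within the low side and 3 in both, and 14 in neither. Within the high side 5 of the 12 lower and 1 of the 12 higher genes were called, and within the low side 5 of 12 and 2 of 12. The difference between these counts was not tested.

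**Figure D2:**
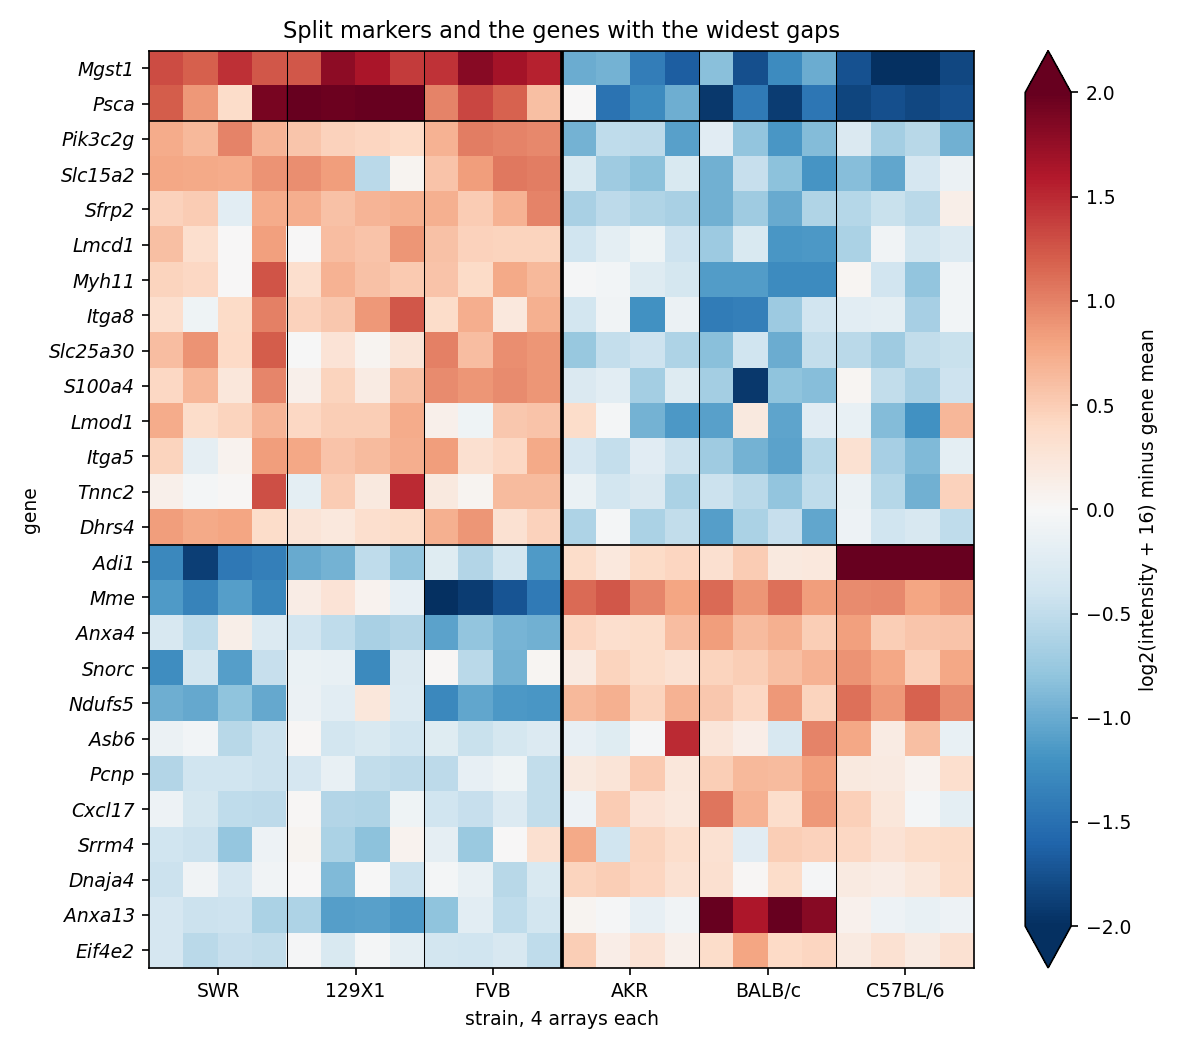
Log2(intensity + 16) minus each gene's mean over the 24 arrays, for Mgst1, Psca and the 12 genes with the widest gap in each direction, with arrays in columns grouped by strain and colours capped at 2 either way. Genes at the top are mostly above their mean in SWR, 129X1 and FVB, those at the bottom mostly below it, and single arrays such as SWR replicate 4 and 129X1 replicate 4 stand out for Tnnc2.

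Of the 12 genes with the widest higher gap, Pik3c2g, a class II phosphoinositide 3-kinase subunit found in liver and glands, came first. Its 12 high-side arrays lay between 6.82 and 7.45 with a median of 7.11, and the low-side arrays between 5.26 and 6.196 with a median of 5.69. The sides did not overlap, and the gap of 1.08 came with a difference of 1.43 (standard error 0.10), 2.69-fold. It was called within neither side (limma's F test, adjusted p = 0.15 and 0.74).

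Slc25a30, a mitochondrial inner membrane carrier, ranged from 9.47 to 10.69 with a median of 10.10 on the high side and from 8.48 to 9.09 with a median of 8.97 on the low side. It did not overlap between the sides, and 129X1, at 9.62 ± 0.15 (SD, n = 4), was the lowest of the high strains (limma's F test within the high side, adjusted p = 0.0036). Of its 4 other probe sets 3 were tested, and all 3 were separated in the same direction, 1420835_at and 1425948_a_at without overlap of arrays and 1450018_s_at with overlap. Slc15a2, a proton-coupled peptide transporter, had strain means of 7.60, 7.12 and 7.67 against 6.27, 5.95 and 6.21, a difference of 1.32 (standard error 0.14). Its arrays overlapped, since 129X1 replicate 3 stood at 6.26. Its second probe set was also separated, with a 1.75-fold difference. Dhrs4, a peroxisomal carbonyl reductase, was 2.07-fold higher without overlap, with 7.89 to 8.57 against 6.58 to 7.64.

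Of the contractile and adhesion genes, Myh11, the smooth muscle myosin heavy chain, had strain means of 9.62, 9.62 and 9.67 on the high side and was not called there (limma's F test, adjusted p = 0.98). On the low side it stood at 8.91 ± 0.16 in AKR, 7.89 ± 0.08 in BALB/c and 8.78 ± 0.37 in C57BL/6 (SD, n = 4), where it was called (adjusted p = 0.00073), and its highest low-side array, at 9.12, lay just above the lowest SWR array, at 9.09. Lmod1, which nucleates actin filaments in smooth muscle, was 1.88-fold higher with overlapping arrays, 5.35 to 6.18 against 4.24 to 6.11. Itga8 and Itga5, the alpha chains of integrins that bind matrix proteins, were 2.19-fold and 2.05-fold higher. A second Itga5 probe set, 1423268_at, was brighter, had a difference of 0.18 and was not separated.

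Lmcd1, a LIM domain protein of muscle and stroma, did not overlap, with 7.09 to 7.97 against 5.91 to 7.01. Sfrp2, a secreted modulator of Wnt signalling made by fibroblasts, was 2.28-fold higher, and only the lowest SWR array, at 6.62, lay below the highest C57BL/6 array, at 6.94. S100a4, a calcium-binding protein of fibroblasts and leukocytes, did not overlap, with 7.40 to 8.26 against 5.35 to 7.34, and BALB/c was lowest at 6.22 ± 0.58 (SD, n = 4; limma's F test within the low side, adjusted p = 0.025).

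Tnnc2, the calcium sensor of fast skeletal muscle, was 1.76-fold higher, with single arrays far above their strain. SWR replicate 4 read 8.94 and 129X1 replicate 4 read 9.14, and the same arrays had the highest skeletal muscle scores, 1.11 and 1.64. On the low side, C57BL/6 replicate 4 read 8.12 and had a score of 0.58, the next highest. A score here is the mean of a list's log2 values after each gene was centred on the 24 arrays. Without the SWR and 129X1 arrays numbered 4 the Tnnc2 difference was 0.60 against 0.81 with them. The C57BL/6 array was kept in both, and the part of skeletal muscle in the difference was not tested. After adjustment for the smooth muscle score the differences of Lmod1 and Tnnc2 turned to -0.44 and -0.63. Lmod1 is itself a member of that score, and the score differed between the sides, so nothing is concluded from these values.

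Among the lower genes, Mme and Adi1 had the largest differences. Mme encodes neprilysin, a membrane metallopeptidase that cleaves small peptides and sits on luminal cells of the prostate. By 1455961_at it read 8.68 ± 0.12 in SWR, 9.98 ± 0.18 in 129X1 and 8.12 ± 0.29 in FVB, against 10.93 ± 0.19 in AKR, 10.89 ± 0.15 in BALB/c and 10.79 ± 0.08 in C57BL/6 (SD, n = 4 each). The low group of arrays ranged from 7.80 to 10.17 with a median of 8.68, and the other side from 10.69 to 11.14 with a median of 10.85. By this probe set, the 3 strains with the higher Mme signal did not pass limma's F test (adjusted p = 0.68). SWR, 129X1 and FVB differed among themselves by it (limma's F test, adjusted p = 1.7e-09). The difference was -1.94, 3.85-fold, and the second probe set, 1422975_at, gave 5.04-fold, again without overlap of arrays. By 1422975_at, however, AKR, BALB/c and C57BL/6 did differ, at 10.48, 9.74 and 9.48 (limma's F test, adjusted p = 1.3e-05).

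Adi1, a dioxygenase of the methionine salvage pathway, differed between probe sets. By 1438759_x_at it ranged from 6.39 to 8.03 with a median of 7.29 in SWR, 129X1 and FVB, and from 8.47 to 10.65 with a median of 8.68 in the other strains. C57BL/6, at 10.51 ± 0.15, stood far above AKR at 8.62 ± 0.10 and BALB/c at 8.58 ± 0.14 (SD, n = 4; limma's F test, adjusted p = 3e-09). The probe set 1438758_at had a gap of 1.53 and a 5.10-fold difference, but 1449076_x_at was not separated, with a 1.13-fold difference.

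Anxa13, an annexin of epithelial membranes, was 2.42-fold lower, and on the other side BALB/c stood at 8.84 ± 0.38 against 6.76 ± 0.10 in AKR and 6.74 ± 0.10 in C57BL/6 (SD, n = 4; limma's F test, adjusted p = 3.1e-10). Its arrays did not overlap, but the highest on the lower side, at 6.59, came close to the lowest on the other, at 6.64. Anxa4, another calcium-dependent membrane-binding protein, was 2.20-fold lower without overlap, and FVB was lowest at 8.56 ± 0.12 (SD, n = 4; limma's F test within that side, adjusted p = 0.0012). A second Anxa4 probe set, 1424176_a_at, was not separated.

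Ndufs5, an accessory subunit of respiratory complex I, ranged from 5.96 to 7.48 with a median of 6.25 against 7.66 to 8.43 with a median of 7.95, a 2.77-fold difference without overlap. The mean of 129X1, at 7.16, lay between those of SWR and FVB, at 6.29 and 6.09, and those of the other side. Pcnp, a nuclear protein with PEST motifs, was 1.70-fold lower without overlap, while its second probe set, 1428314_at, was not separated.

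Snorc, a proteoglycan known from cartilage, and Eif4e2, a cap-binding repressor of translation, were 2.10-fold and 1.58-fold lower without overlap. Other Eif4e2 probe sets differed from this: 1435803_a_at and 1435804_at were separated lower with overlap, at 1.72-fold and 1.10-fold, and 1421986_at was not separated. Cxcl17, a chemokine of mucosal epithelia, was 1.65-fold lower, with the highest level in BALB/c (limma's F test on that side, adjusted p = 0.023). Asb6, an adaptor of ubiquitin ligases, had a difference of -0.58, with AKR replicate 4 at 6.81. Its other probe set, 1448431_at, was brighter, had a difference of -0.08 and was not separated. Srrm4, a splicing regulator of neurons, and Dnaja4, a co-chaperone, were 1.52-fold and 1.46-fold lower. Arrays of Cxcl17, Asb6, Srrm4 and Dnaja4 overlapped. Another Dnaja4 probe set, 1434196_at, was separated lower at 1.39-fold, and 1418592_at was not separated.

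Beyond the named genes, the probe sets without overlap of arrays were picked out after their values were seen. On the higher side they covered 11 genes, with Col4a1, a chain of basement membrane collagen, at 1.54-fold, the matrix protein Smoc2 at 1.87-fold, the kinase Stk24 at 1.36-fold and the myelin protein Pmp22 at 1.39-fold. A further 2 carried several gene symbols and are not named. On the lower side they covered 12 genes, and 3 that were not yet described belong to mitochondria or copper handling: Atp5h, a subunit of ATP synthase, at 1.63-fold, Ndufa7, of complex I, at 1.38-fold and the copper chaperone Atox1 at 1.43-fold. For Atp5h and Ndufa7, a brighter tested probe set of the gene was not among those without overlap. The remaining gene on the lower side was H2-D1, a class I histocompatibility gene that is polymorphic between strains, and its 9 probe sets disagreed. The probe set 1452544_x_at was lower, with a mean of 9.78 in BALB/c, whereas 1425545_x_at was separated in the opposite direction, with AKR at 8.09 and the other low-side strains at 9.82 and 10.48.

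Of 13 smooth muscle genes, all tested, 11 were separated higher and none lower, and all 13 had a difference above 0. Over all 9431 genes, each by its brightest tested probe set, 6.17% were separated higher and 5.23% lower, and the median difference was -0.0048 against 0.73 for the smooth muscle list. Tagln, an actin-binding protein of smooth muscle, had strain means of 11.33, 11.15 and 11.24 in SWR, 129X1 and FVB against 10.54, 10.25 and 10.64 in AKR, BALB/c and C57BL/6, a 1.70-fold difference. Actg2, the enteric smooth muscle actin, was 1.76-fold higher. Des and Myocd were not separated. The summed intensity of the 13 genes was 9666 to 15994 on the high side and 5542 to 9508 on the low side, with no overlap, and none of them was at 0 on any array. The strain scores were 0.26, 0.35 and 0.42 in SWR, 129X1 and FVB against -0.13 in AKR, -0.65 in BALB/c and -0.24 in C57BL/6. Leaving out any single array kept the count at 11.

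The other stromal lists leaned the same way. Of 14 fibroblast and matrix genes tested, of 15 in the list, 8 were separated higher and none lower, with a median difference of 0.37. Sparc, a collagen-binding protein of matrix, was 1.72-fold higher, and the collagen chains Col1a1, Col6a1 and Col1a2 were 1.55-fold, 1.52-fold and 1.37-fold higher. The summed intensities overlapped, at 5537 to 8239 against 3918 to 6341, and no tested member was at 0. The count was 5 after adjustment for the adipocyte score, 5 after adjustment for the skeletal muscle score, 5 without the SWR and 129X1 arrays numbered 4, and 0 after adjustment for the smooth muscle score. The smooth muscle score itself differed between the sides, so adjusting for it also removes part of any difference between them. Single arrays left out gave 6 to 9.

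Basal epithelial genes, 9 tested of 10, were separated higher in 4 cases and lower in none. All 9 differences were above 0, and their median was 0.71. Krt14 and Krt5, the keratins of basal cells, were 1.94-fold and 1.64-fold higher, Col17a1, a hemidesmosome collagen, 1.74-fold, and Trp63, the basal transcription factor, 1.28-fold. The strain means of Krt5 were 7.44, 7.86 and 7.28 against 7.20, 6.66 and 6.59, and AKR thus lay close to the higher strains. The summed intensity was 1066 to 1654 against 574 to 1145, with overlap, and none was at 0. The count rested on few arrays: it was 1 without AKR replicate 4 or without FVB replicate 4, and 2 without AKR replicate 3, FVB replicate 1 or FVB replicate 2. With a stricter filter or with strain medians it was also 2. The part of stromal and basal content in the differences of other genes was not tested beyond the covariate fits.

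**Figure D3:**
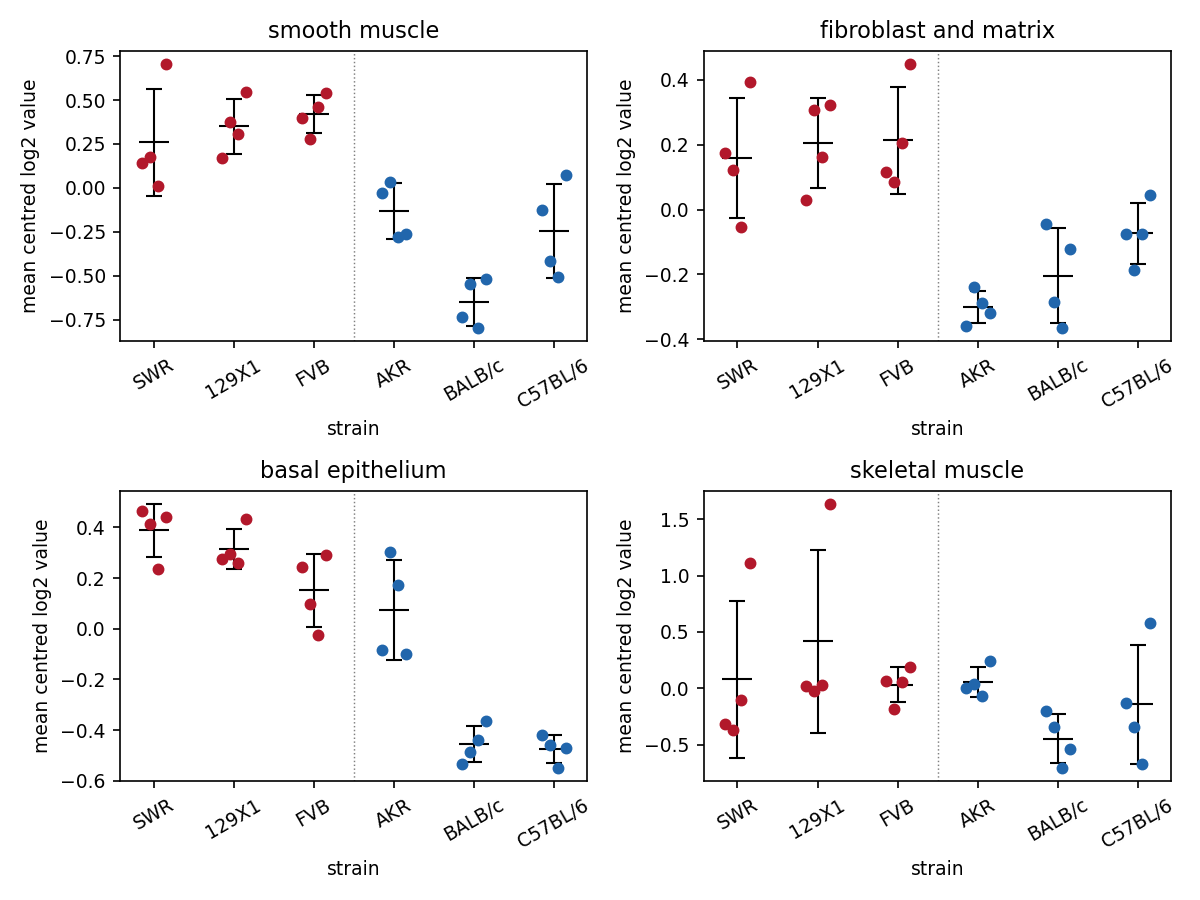
Scores of marker lists on each array by strain, each the mean of the list's log2(intensity + 16) values centred per gene on the 24 arrays, with the strain mean and SD (n = 4). Smooth muscle scores run from 0.01 to 0.71 in SWR, 129X1 and FVB and from -0.80 to 0.08 in AKR, BALB/c and C57BL/6, and the skeletal muscle score of 129X1 replicate 4 stands at 1.64.

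Among lists of other cell types, none of 8 endothelial, 11 leukocyte and 6 adipocyte genes was separated. Adipocyte scores ranged widely on both sides, from -0.75 to 2.19 and from -1.07 to 2.12. Of 10 skeletal muscle genes 2 were separated higher, Tnnc2 and Actn3, and of 6 nerve and glia genes 1, Pmp22. Over all 9431 genes 6.17% were separated higher and 5.23% lower. Of 2 blood genes tested 1 was separated, Alas2, the first enzyme of haem synthesis in red cells, at 1.97-fold higher. The other, Hba-a1, was not separated and its difference was not above 0.

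Relatives of the split markers were counted in the same way. Over all 9431 genes, 6.17% were separated higher and 5.23% lower. With so few members per list, nothing is read from the counts in this and the next paragraph. Of the membrane enzymes related to Mgst1 (the MAPEG family), 5 of 6 were tested and Mgst1 alone was separated. Mgst3, a relative in the same family, had strain means of 7.73, 8.00 and 8.44 against 8.41, 8.52 and 8.18, a difference of -0.31. Ptges, the prostaglandin E synthase, had a difference of 0.04 and Alox5ap, which serves leukotriene synthesis, one of -0.01. Of 16 soluble glutathione transferases tested 2 were separated higher, Gstk1 at 1.67-fold and Gstm5 at 1.13-fold, and none lower, with a list median of -0.04. Gsta4, which clears lipid aldehydes, was at 5.54 in C57BL/6 and at 7.69 to 8.47 in the other 5 strains, so that it did not follow the grouping.

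Among 15 genes of glutathione synthesis and peroxidases none was higher and 1, Gpx8, was lower, by 1.55-fold. Of 16 targets of NRF2, the regulator of antioxidant genes, 1 was separated, Tkt, at 1.20-fold. Of the Ly6 family 9 of 28 were tested, and beside Psca only Cd59a, an inhibitor of complement, was separated, at 1.91-fold. Its strain means were 8.71 in SWR, 7.61 in 129X1 and 8.61 in FVB against 7.45, 7.37 and 7.30, and within the high side it differed between strains (limma's F test, adjusted p = 1.3e-06). The strain with most Psca, 129X1, thus had least Cd59a of the high side. Of 14 markers of proximal luminal cells and bladder lining, 1 was separated, Psca itself.

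None of 8 ventral prostate secretory genes and none of 13 androgen receptor and luminal regulators was separated. The shares over all 9431 genes were 6.17% higher and 5.23% lower, and with lists this small nothing is read from the counts. Msmb, a major secreted protein, had strain means of 12.57, 12.26 and 12.47 against 12.63, 13.55 and 11.82, with BALB/c and C57BL/6 at opposite ends (limma's F test within that side, adjusted p = 2.2e-06). Azgp1, a secreted zinc-binding glycoprotein, had means of 11.62, 10.35 and 9.82 against 11.93, 9.56 and 11.39 and varied within both sides (adjusted p = 2.2e-09 and 5.4e-12). Of 5 genes for secretions of other lobes and the seminal vesicle 1, Svs5, was lower, by 1.16-fold.

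Separated genes of the remaining lists were mostly lower, against 5.23% lower over all 9431 genes. Of 20 genes for folding proteins in the secretory pathway, 4 were separated lower and none higher, with a list median of -0.31. They were Sdf2l1 at 1.47-fold, the chaperone Hsp90b1 at 1.41-fold, the disulfide isomerase Pdia3 at 1.39-fold and Dnajb9 at 1.15-fold. The gaps of Hsp90b1 and Dnajb9 were narrow, at 0.023 and 0.0090. Pdia6, another isomerase of the list, had a larger difference, 1.72-fold, and was not separated, since SWR at 11.15 lay above C57BL/6 at 11.01. The score of that list was 0.051 in SWR, above 0.046 in C57BL/6, and lowest in 129X1 at -0.39, so the list as a whole did not separate the sides. Lower genes numbered 2 of 13 for proliferation (Top2a and Mcm2), 2 of 11 for cholesterol synthesis (Fdps and Sqle) and 2 of 16 for mitochondrial respiration (Ndufa4 and Cox6a1), of which Mcm2 and Cox6a1 had gaps of 0.026 and 0.0090. The proliferation score was highest in AKR, at 0.35, and lay between -0.13 and 0.05 in the other 5 strains. Interferon response genes had a median of -0.42 over 13, but their score was highest in 129X1, at 0.35, and lowest in SWR, at -0.54, and 1 gene, Gbp2, was separated, and higher. Heat shock and immediate early genes gave 2 higher and 1 lower of 16, and class I histocompatibility and antigen processing genes 1 higher of 11. The latter was H2-D1 by 1425545_x_at, with a gap of 0.038, and the probe sets of this gene disagreed as described above.

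**Figure D4:**
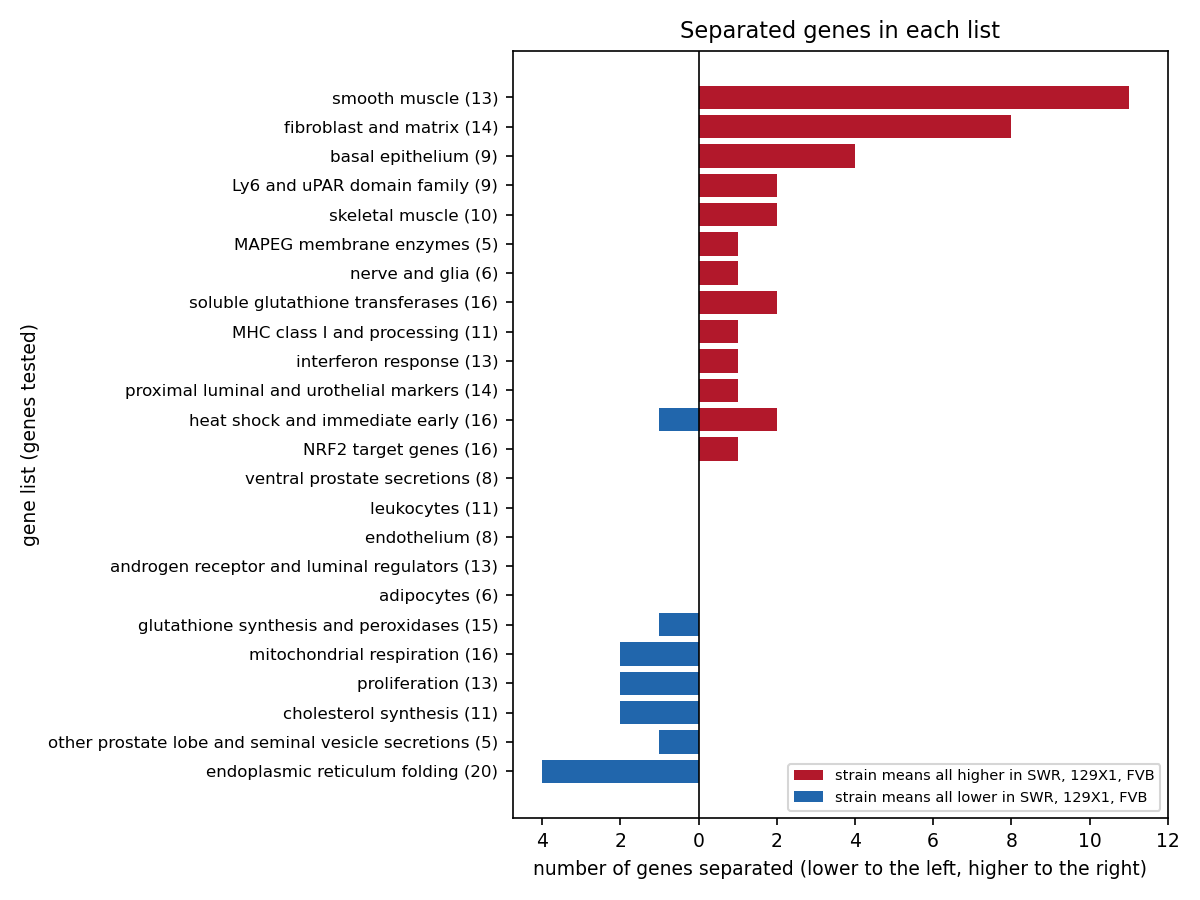
Number of genes of each list that were separated higher (right) or lower (left) in SWR, 129X1 and FVB, with the number of genes tested in brackets, for lists with at least 5 tested. Smooth muscle has 11 of 13 higher, fibroblast and matrix 8 of 14 and basal epithelium 4 of 9, while endoplasmic reticulum folding has 4 of 20 lower.

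Position on the chromosome was compared as well, since the strains differ by inherited segments. In the order of tested genes along the chromosomes, taken from RefSeq's annotation, Pik3c2g was the gene next to Mgst1. Of the 20 tested genes nearest to Mgst1, 2 were separated higher (Pik3c2g and Aebp2) and 3 lower (Dera, Eps8 and Slco1a6). Dera, next to Mgst1 on the other side, had a difference of -0.41, and the differences around Mgst1 thus ran in both directions. Of the 20 tested genes nearest to Psca, none was separated, and their differences lay between -0.30 and 0.22. These included its relatives Lynx1 and Ly6d.

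Around Snorc, 6 of the 20 nearest tested genes were lower and 2 higher, against 5.23% lower over all genes. This window was singled out because it held the most lower genes of the 26 windows examined. It overlaps that of Eif4e2, which is one of the 6 and has 5 lower genes in its own window. Next to a separated gene of the same direction stood 89 of 582 higher genes (15.3%) and 59 of 493 lower genes (11.97%). For all 9420 ordered genes, 12.05% stood next to a higher gene and 10.1% next to a lower one. Next to a gene of the opposite direction stood 8.59% of the higher and 10.3% of the lower genes.

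**Figure D5:**
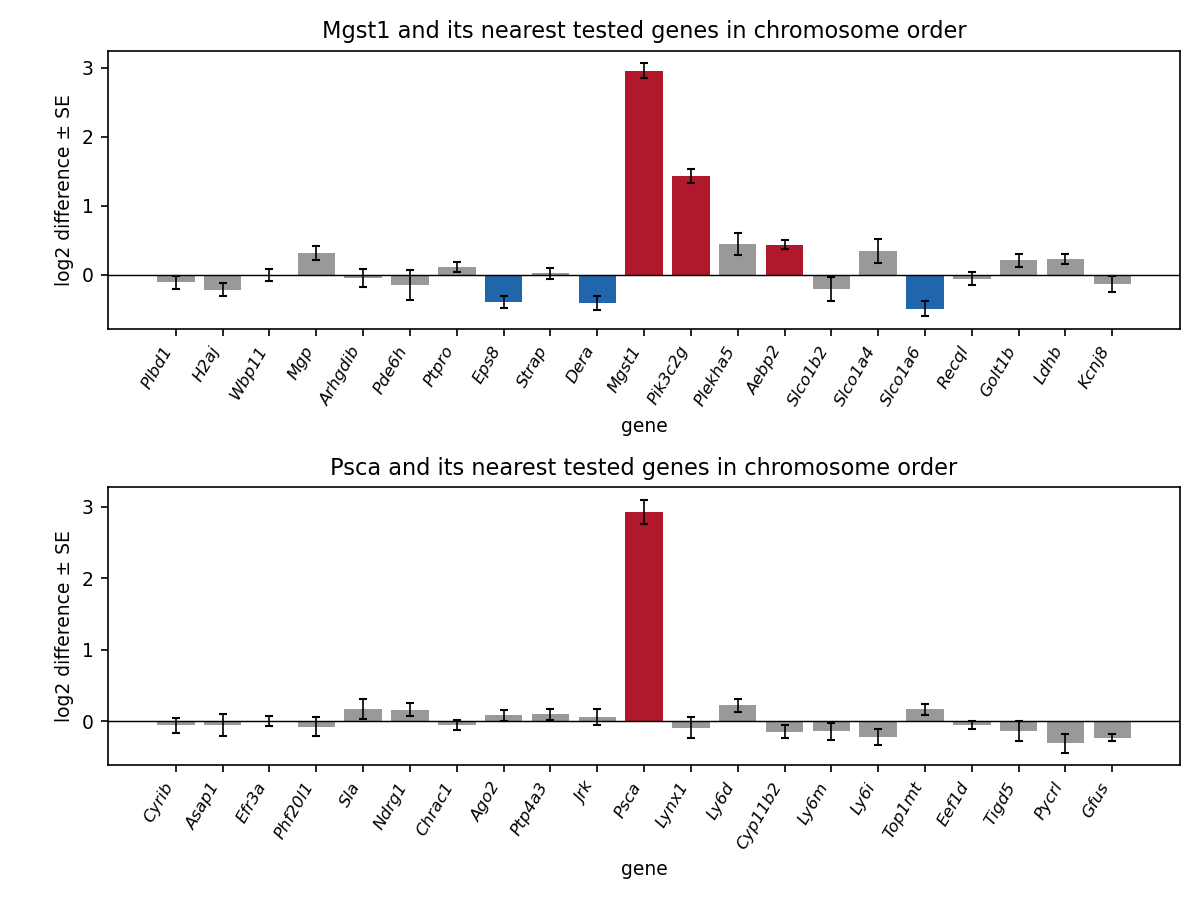
Log2 difference (SWR, 129X1 and FVB minus AKR, BALB/c and C57BL/6, with its standard error) of Mgst1, Psca and their nearest tested genes in chromosome order (red, separated higher; blue, separated lower; grey, not separated). Beside Mgst1 at 2.95 its neighbour Pik3c2g stands at 1.43 and Dera at -0.41, whereas the genes around Psca, at 2.93, lie between -0.30 and 0.22.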

How the data were processed

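Total RNA of 24 ventral prostate samples from 6 mouse strains was read on Affymetrix MOE430A arrays. The deposited table holds 1 linear intensity per probe set and array. Per the submitters' processing notes the tool was MAS5, with no version given. The mean deposited intensity was 143 on every array, and 11 values were 0. Their 2% trimmed means were 91.4 to 105, so each array was rescaled to 98.7, and log2(intensity + 16) was taken. The array has 22690 probe sets, 64 of them controls, which were dropped. A further 6851 were not tested because fewer than 4 arrays had them above that array's 40th percentile, and 15775 remained. One gene symbol was given for 20380 probe sets, several for 691 and none for 1555, and 20359 matched a RefSeq gene of GRCm38.p6, used for names, gene order and promoters. Precision is limited by the number of arrays.

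Limma 3.58.1 in R 4.3.3 was fitted with 1 coefficient per strain (18 residual and 4.85 prior degrees of freedom). Adjusted p-values are Benjamini-Hochberg values over all 15775, at a threshold of 0.05. The workflow was tested on simulated data. Named genes were Mgst1, Psca and the 12 genes with the widest gap in each direction among tested probe sets with 1 symbol, by the brightest separated probe set of each gene, and list members are examples. For lists the brightest tested probe set of a gene was used. The grouping, members and 25 lists were chosen with earlier results of these data known. Other pseudocounts, scalings, filters, covariates and left-out arrays were tried as alternatives.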

Additional observations from a re-analysis of the deposited data

Results flagged for a closer look

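Values were looked at again where the highest or lowest of a strain's 4 arrays stood apart from the other 3 by Dixon's criterion, which was met by 11 of 174 groups of arrays, and chance alone gives such groups at a rate of about 1 in 20. In SWR, replicate 4 read 7.71 for Slc15a2 against 7.55 to 7.57 on the other arrays, and 8.94 for Tnnc2 against 7.61 to 7.75. In FVB, replicate 1 read 7.67 for Lmcd1 against 7.53 to 7.54. S100a4 was low on AKR replicate 3, at 6.61 against 7.01 to 7.08, and on BALB/c replicate 2, at 5.35 against 6.43 to 6.604. In 129X1, replicate 3 read 4.39 for Snorc against 5.37 to 5.53, and replicate 1 read 6.19 for Anxa13 against 5.66 to 5.72. AKR replicate 4 read 6.81 for Asb6 against 5.06 to 5.28, and AKR replicate 3 read 9.21 for Pcnp against 8.88 to 8.93. BALB/c replicate 2 read 9.16 for Eif4e2 against 8.72 to 8.79. The skeletal muscle score of 129X1 replicate 4 was 1.64 against -0.02 to 0.03 on the other arrays of that strain.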

How the results depend on the processing

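Of 952 differences of named genes under alternatives, 918 stayed within 1 SD, 32 moved and 2 reversed: after adjustment for the smooth muscle score, Lmod1 went to -0.44 and Tnnc2 to -0.63. That adjustment gave 3166 separated probe sets (1473 higher, 1693 lower), 44 without overlap of arrays, 124 called by limma for the difference between the sides (70 higher, 54 lower) against 2229 without it (1249 higher, 980 lower), 1 separated smooth muscle gene and 0 fibroblast genes; the score itself differed between the sides. The smooth muscle genes, Lmod1 among them, make up that score, so their values after adjustment for it carry no support. The adipocyte covariate gave 2160 calls within the low side and 5 fibroblast genes, and the skeletal muscle covariate 5. Gaps of at least 1 numbered 9 with a pseudocount of 1, and 1195 probe sets were separated lower with no filter on dim values. The basal count was 2 with a stricter filter and 2 with strain medians, and the fibroblast count 5 without the SWR and 129X1 arrays numbered 4, an alternative chosen after seeing the data. With strains as the replicates, limma called 1 probe set (Mgst1; 1 higher, 0 lower), and 946 of the 15775 tested had an unadjusted p under 0.05. The grouping was taken from the measured values of Mgst1 and Psca, so neither this call nor this count supports it. Leaving out single arrays gave 1631 to 1894 separated probe sets (874 to 1001 higher, 742 to 903 lower), 29 to 40 without overlap, 3 to 5 gaps of at least 1, 1966 to 2378 side calls (1087 to 1316 higher, 855 to 1062 lower), 1843 to 2424 and 2899 to 3626 calls within the sides, and list counts of 11 to 11 (smooth muscle), 6 to 9 (fibroblast) and 1 to 5 (basal). The correlation of Mgst1 with Psca ranged from -0.28 to 0.02 and reversed without AKR replicate 2 (0.023) and without BALB/c replicate 2 (0.0093).

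With the replicate number as a block, 52 probe sets had arrays that did not overlap. The numbers did not pair the arrays, as seen on deviations from the strain mean. Same-numbered arrays of different strains had deviations with a mean correlation of 0.0053 over 60 pairs, 5 of them over 0.1. For 3 of 24 arrays the best match in another strain had the same number.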
